A study of Mus musculus with 6 samples.

Results

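The genes for mitochondrial ribosomal proteins were followed in livers of mice without Gα12 and of wild-type (WT) mice. A gene belonged to the set if its RefSeq symbol began with Mrpl (large subunit) or Mrps (small subunit) followed by a number, and if 3 or more of the 6 arrays showed one of its probes well above background. Of 78 such genes with a probe, 77 met this condition, out of 12294 named genes that met it on the whole array. The gene left out was Mrpl21, whose probe was well above background on 0 arrays and which was therefore not measured. For all 77 genes the probe used was well above background on every array.

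Livers came from 3 Gα12 KO and 3 WT mice, all male and 8 weeks old, of mixed C57BL/6 and 129/Sv origin with a background that was 95% C57BL/6. Every animal had been on chow and was killed after a night without food. Gα12, encoded by Gna12, is a G protein α subunit that relays signals from cell surface receptors. The labels give neither the part of Gna12 that was deleted nor a cell type to which the deletion was limited. RNA was read on 1-colour Agilent arrays, and a level below is the log2 signal minus the array's 75th percentile, so that a difference of 1 is a doubling of signal. Differences are Gα12 KO minus WT, errors are SD (n = 3 per group) or the standard error (SE) fitted by limma, and the number of arrays limits their precision. In a whole liver, fewer cells of a type and less RNA per cell cannot be told apart.

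Mitochondria carry ribosomes of their own, which make the few proteins encoded by mitochondrial DNA, all of them core subunits of the respiratory chain and ATP synthase. The rRNAs of these ribosomes come from mitochondrial DNA, but every protein is encoded in the nucleus, made in the cytosol and imported. Many of the proteins have a counterpart in bacterial ribosomes and others are particular to mitochondria. Their genes are active in most tissues, and binding sites for the factors NRF1, GABP (an ETS factor) and YY1 are known in many promoters of nuclear genes for mitochondrial proteins.

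The 77 genes lay on 17 chromosomes, and RefSeq (GRCm38.p6) gave a promoter window, from 250 bases before to 50 after the start, for 68 of them. The letters searched, on both strands, were CCGGAAG for ETS factors, GCGCANGCG for NRF1, AAGATGGC for YY1 and CCGCCC for SP factors. The ETS letters were in 33.8% of the 74 windows of these genes, against 16.3% of the windows of all measured genes and 8.86% of all windows in the table. The NRF1 letters were in 21.6%, against 12.1% and 6.25%, and the YY1 letters in 16.2%, against 4.11% and 2.75%. At least 1 of these 3 motifs was in a window of 63.2% of the genes, against 32.9% of measured genes and 17.8% of all genes in the table. The SP letters did not follow this order, with 52.7% of the windows of these genes, 58.8% of those of measured genes and 35.7% of all. A match is a description of letters and not a binding site. The 5 windows below belong to genes whose values are described further on: Mrps12 and Mrps26, with lower means in Gα12 KO livers, Mrps27 and Mrpl37, with higher means, and Mrps11, which shares its window with another gene of the family. Each reads 5′ to 3′ in the direction of the gene, with ETS, NRF1 and YY1 motifs in capitals.
Mrps12, chr7:28741772-28742071, minus strand: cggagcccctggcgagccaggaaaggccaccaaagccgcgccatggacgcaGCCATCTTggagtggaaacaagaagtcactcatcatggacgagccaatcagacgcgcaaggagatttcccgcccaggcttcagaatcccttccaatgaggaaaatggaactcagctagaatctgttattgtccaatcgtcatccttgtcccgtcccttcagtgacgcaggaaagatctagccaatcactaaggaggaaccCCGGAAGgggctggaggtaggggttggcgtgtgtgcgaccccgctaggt
Mrps26, chr2:130563507-130563806, plus strand: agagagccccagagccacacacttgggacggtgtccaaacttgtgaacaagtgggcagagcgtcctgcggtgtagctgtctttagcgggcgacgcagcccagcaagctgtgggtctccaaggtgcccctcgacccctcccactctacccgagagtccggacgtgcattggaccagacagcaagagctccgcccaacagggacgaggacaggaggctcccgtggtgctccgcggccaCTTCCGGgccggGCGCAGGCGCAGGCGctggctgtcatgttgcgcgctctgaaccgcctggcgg
Mrps27, chr13:99344536-99344835, plus strand: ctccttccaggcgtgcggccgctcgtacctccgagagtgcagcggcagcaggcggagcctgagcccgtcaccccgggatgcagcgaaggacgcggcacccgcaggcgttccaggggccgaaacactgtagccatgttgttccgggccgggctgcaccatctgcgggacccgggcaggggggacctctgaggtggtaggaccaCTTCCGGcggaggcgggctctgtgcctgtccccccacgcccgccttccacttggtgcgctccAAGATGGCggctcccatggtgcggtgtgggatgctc
Mrpl37, chr4:107066817-107067116, minus strand: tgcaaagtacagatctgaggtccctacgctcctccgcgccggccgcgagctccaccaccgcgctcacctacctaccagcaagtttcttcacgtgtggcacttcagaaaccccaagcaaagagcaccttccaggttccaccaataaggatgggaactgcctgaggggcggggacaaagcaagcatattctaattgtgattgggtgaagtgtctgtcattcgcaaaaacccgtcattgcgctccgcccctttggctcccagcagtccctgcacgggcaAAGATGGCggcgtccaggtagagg
Mrps11, chr7:78782881-78783180, plus strand: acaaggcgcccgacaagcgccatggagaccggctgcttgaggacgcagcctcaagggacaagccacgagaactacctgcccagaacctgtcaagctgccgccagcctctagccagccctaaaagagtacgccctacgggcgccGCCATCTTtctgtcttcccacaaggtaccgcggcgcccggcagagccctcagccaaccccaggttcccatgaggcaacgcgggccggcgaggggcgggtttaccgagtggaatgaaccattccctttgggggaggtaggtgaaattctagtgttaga

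Mrps12 and Mrps27 carry the ETS and YY1 letters, Mrps26 carries ETS letters and a pair of overlapping NRF1 matches around its start, and Mrpl37 and Mrps11 carry YY1 letters. A neighbour read in the opposite direction, with its start at most 1000 bases away, stood beside 26 of the 68 genes (38.2%), against 19.5% of measured genes. Of 21 such pairs in which both genes were measured, 13 had lower means in Gα12 KO livers for both genes, 1 had higher means for both and 5 had a lower mean for the mitochondrial ribosomal protein gene with a higher one for its neighbour. The remaining pairs, Mrpl37 with Cyb5rl and Mrps5 with Zfp661, had the reverse. Lower means were found for 88.3% of the family and 72.3% of all genes, and pairs of other genes were not counted.

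Gna12 itself, the targeted gene, had log2 levels of -4.91, -4.62 and -3.47 in Gα12 KO livers and of -3.48, -4.55 and -0.89 in WT livers. Only WT replicate 3 was well above background, so this probe tells little about the genotype labels (difference -1.36, SE 0.91, limma adjusted p = 0.317 over all probes). The WT livers were not alike. Across probes, WT replicates 1 and 2 correlated with the Gα12 KO livers at 0.869 to 0.930, and WT replicate 3 did so at 0.966 to 0.982. The 7 probes for Gapdh, a glycolytic enzyme gene, spanned 4.82, 4.87 and 4.36 log2 units in Gα12 KO livers and 9.58, 7.79 and 4.01 in WT livers. Each genotype had a slide row to itself, so the effects of row and genotype cannot be told apart. All 8 hepatocyte markers were measured. Results below are therefore given with and without the WT livers concerned.

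As a family, the mitochondrial ribosomal protein genes had lower signals in Gα12 KO livers than in WT livers by about as much as all 12294 genes with a kept probe did under the filter and scaling used here, and WT replicate 3 did not share the higher signals of WT replicates 1 and 2. The mean was lower in Gα12 KO livers for 68 of the 77 genes and higher for 9. The median difference was -0.57, with an interquartile range of -0.78 to -0.30, against a median of -0.49 and 72.3% lower means over all genes. The interquartile range was 0.48 log2 units wide for these genes and 0.96 for all genes. Without the filter on dim probes the family's median was -0.56, against -0.08 over all genes then tested, and after quantile normalization it was -0.085, against -0.21. The limma test called 0 of the 77 genes at an adjusted p below 0.05, and 0% of all genes, with 0.235 as the lowest adjusted p of the family. At an unadjusted p below 0.05, 4 of 77 genes were lower (5.19%), against 16.6% of all genes, and 0 were higher, against 3.99%. The count of 4 became 1 when any 1 liver other than WT replicate 3 was left out. The lower count among all 12294 genes fell in the same fits, from 2038 to between 553 and 1032. The family's split became 1 lower and 1 higher after quantile normalization and with the 75th percentile over detected probes. Among all genes it was then 1746 lower and 550 higher, and 1018 lower and 704 higher. The 3 Gα12 KO livers all lay below the 3 WT livers for 11 genes (14.3%), against 21.1% of all genes, and all above them for 0, against 4.42%.

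**Figure D1:**
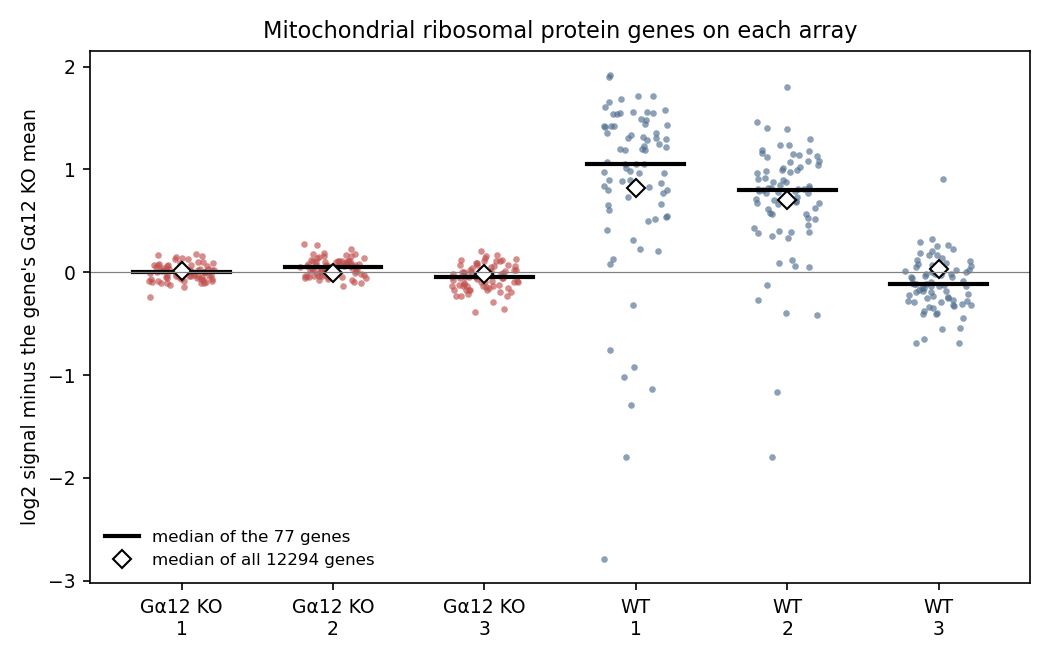
Each point is 1 of the 77 mitochondrial ribosomal protein genes on 1 array, as its log2 signal minus its own mean over the 3 Gα12 KO livers (y axis); bars are medians of the 77 genes and diamonds medians of all 12294 genes. The Gα12 KO livers and WT replicate 3 lie close to 0, with a median of -0.12 in WT replicate 3, while WT replicates 1 and 2 have medians of 1.06 and 0.80.

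Set against each gene's own mean in Gα12 KO livers, the family's median was 1.06 in WT replicate 1, 0.80 in WT replicate 2 and -0.12 in WT replicate 3. The same medians over all genes were 0.82, 0.71 and 0.03. WT replicates 1 and 2 both lay above the other 4 arrays for 67 of the 77 genes (87.0%, against 59.2% of all genes) and both below them for 5 (6.49%, against 16.4%). WT replicate 3 lay below all Gα12 KO livers for 41 genes (53.2%, against 26.8% of all genes), within their range for 20 (26.0%, against 40.6%) and above it for 16 (20.8%, against 32.6%). The median SD between livers was 0.10 in Gα12 KO and 0.67 in WT for these genes, and 0.19 in Gα12 KO and 0.65 in WT for all genes. The SD was larger in WT than in Gα12 KO for 76 of the 77 genes (98.7%), against 85.5% of all genes.

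Without WT replicate 3, limma called 56 of the 77 genes lower in Gα12 KO livers (72.7%), against 50.6% of all genes, and 2 higher (2.60%), against 11.5%, and the family's median was -0.98. The genes then called higher were Mrpl37 and Mrps27, each with 1 kept probe. Without WT replicates 1 and 2, which leaves 1 WT liver whose spread is taken to be that of the others, 0 genes were called in the family and 0% on the array, and the family's median turned to 0.12, with 24 of 77 means lower. At an unadjusted p below 0.05 that fit had 1 lower gene, Mrps12, against 4.06% of all genes, and 2 higher genes, Mrpl55 (0.69) and Mrpl57 (0.65), against 2.72%. The summed log2 level of 6 measured Kupffer cell and macrophage markers of 7 was 6.33 to 6.62 in Gα12 KO livers and 6.26 to 7.50 in WT livers, highest in WT replicates 1 and 2. That of 5 measured stellate cell markers of 6 was 5.99 to 6.26 in Gα12 KO livers and 6.38 to 7.17 in WT livers, and that of the 3 erythroid markers was 8.04 to 8.25 in Gα12 KO livers and 8.18 to 9.03 in WT livers. The 8 hepatocyte markers summed to 12.4 to 12.8 in Gα12 KO livers and 12.1 to 12.9 in WT livers. The 6 endothelial markers summed to 6.50 to 6.89 in Gα12 KO livers and 6.67 to 7.02 in WT livers, 3 measured cholangiocyte markers of 5 to 1.06 to 1.52 in Gα12 KO livers and 0.30 to 1.75 in WT livers, and 4 measured lymphocyte markers of 5 to 3.22 to 3.76 in Gα12 KO livers and 3.12 to 3.69 in WT livers. For skeletal muscle, 2 measured markers of 4 summed to -1.87 to 1.28 in Gα12 KO livers and -2.90 to -1.91 in WT livers. Gα12 KO replicate 1, at -1.87, was only just above WT replicate 3, at -1.91. The markers without a kept probe were Cd68 (macrophage), Reln (stellate cell), Krt7 and Epcam (cholangiocyte), Cd79a (lymphocyte), and Ckm and Myh4 (skeletal muscle). Their part in the family's difference was not tested.

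The choice of a constant per array moved all genes by the same amount, and quantile normalization moved genes unequally. When arrays were aligned on the median of their kept probes, the array's median difference was -0.36, with the 75th percentile of probes detected on all arrays it was -0.02, and after quantile normalization it was -0.21. Relative to that median, the family lay at -0.07 with the scaling used here, at -0.07 with each of the other 2 constants per array and at 0.12 after quantile normalization. Between 44 and 68 of the 77 means were lower in Gα12 KO livers under these scalings.

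**Figure D2:**
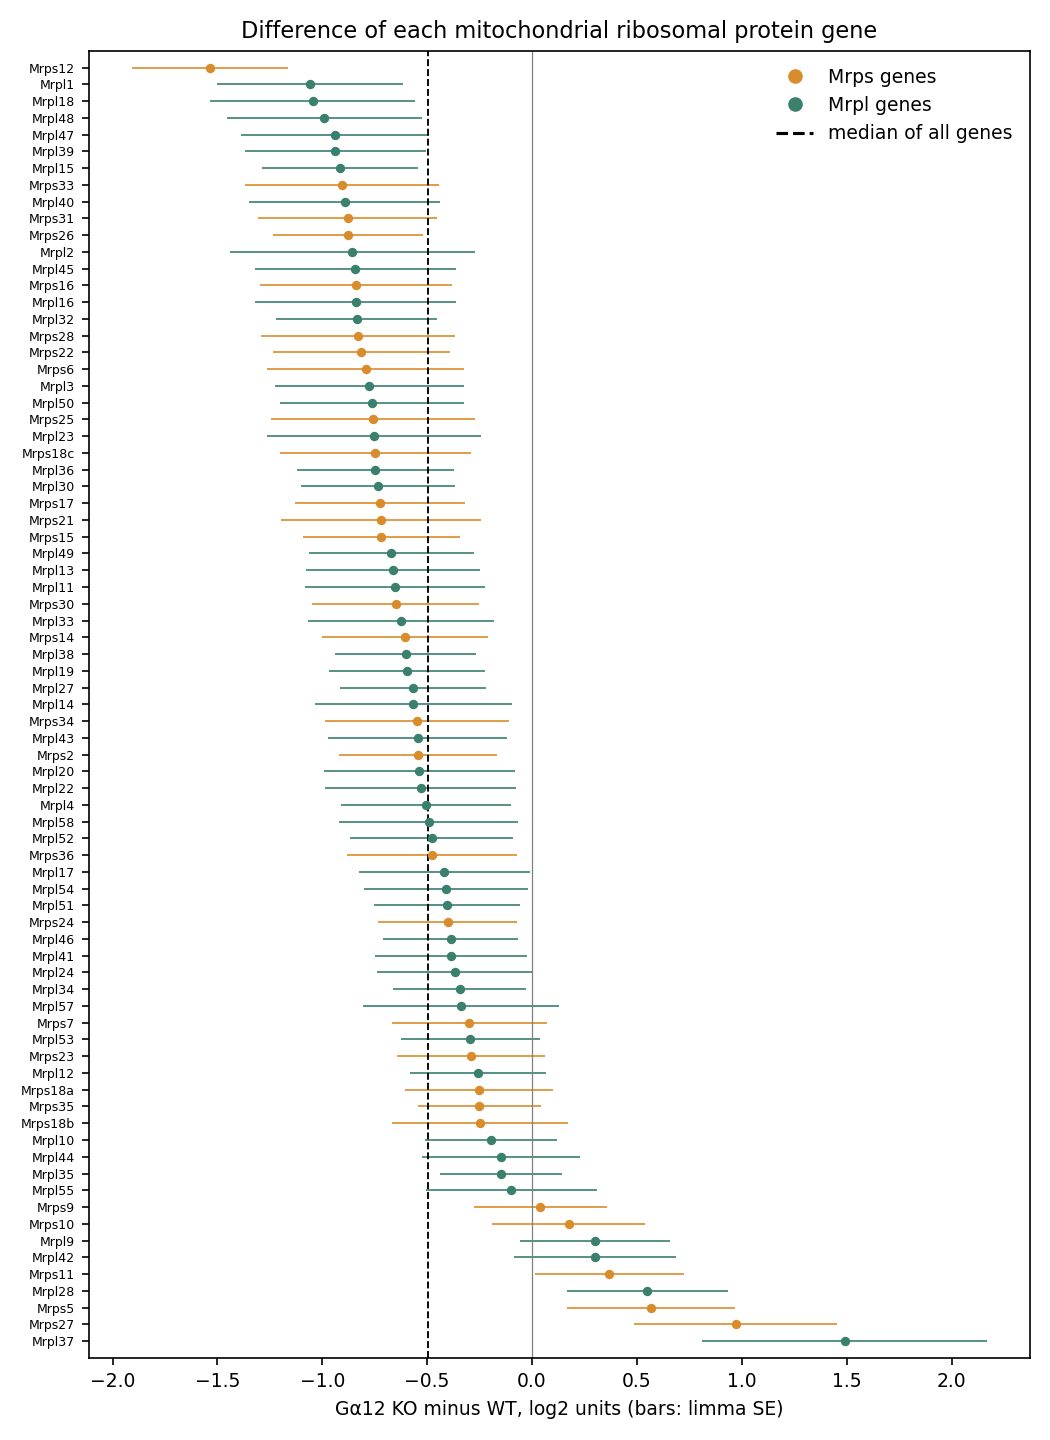
Gα12 KO minus WT in log2 units (x axis) for each of the 77 genes, from the lowest at the top to the highest at the bottom, with bars for the limma SE; colours separate Mrps from Mrpl genes and the dashed line is the median of all genes, -0.49. Mrps12 at -1.53 and Mrpl37 at 1.49 are the ends of the range.

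Small subunit genes, by name, were 29 in number. Their median difference was -0.61. An unadjusted p below 0.05 was found for 2 genes with lower means (6.90%, against 16.6% of all genes) and for 0 with higher means. The gene with the lowest p was Mrps12, which encodes the counterpart of a bacterial protein at the decoding centre, where codon and anticodon pair. Its log2 levels were 4.64, 4.85 and 4.52 in Gα12 KO livers and 6.56, 6.47 and 5.57 in WT livers. All 3 WT livers were above all 3 Gα12 KO livers, and WT replicate 3 was the lowest of them, 0.90 above the Gα12 KO mean. The means were 4.67 ± 0.17 in Gα12 KO and 6.20 ± 0.55 in WT (difference -1.53, SE 0.37, limma adjusted p = 0.235). The difference kept its sign under every alternative run, between -0.90 without WT replicates 1 and 2 (limma adjusted p = 0.630) and -1.85 without WT replicate 3 (limma adjusted p = 0.00457), which was the only one that passed.

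Mrps12 faces Sars2, the gene of the mitochondrial seryl-tRNA synthetase, across 147 bases. Sars2 had log2 levels of 0.86, 1.18 and 0.98 in Gα12 KO livers and of 0.29, 0.55 and 0.95 in WT livers. Its groups overlapped, and its difference was 0.41 (SE 0.33, limma adjusted p = 0.395), on the other side of 0 from that of Mrps12. Mrps11, the counterpart of a bacterial protein of the small subunit's platform, faces Mrpl46 across 42 bases. Mrps11 differed by 0.37 (SE 0.36) and Mrpl46, a large subunit gene particular to mitochondria, by -0.39 (SE 0.32), and neither passed (limma adjusted p = 0.476 and 0.412).

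Mrps26, Mrps15 and Mrps35 of the small subunit also had Gα12 KO livers all below WT livers. Mrps26, particular to mitochondria, had 4.65, 4.74 and 4.87 in Gα12 KO livers and 5.97, 5.88 and 5.05 in WT livers. WT replicate 3 was only 0.30 above the Gα12 KO mean there (difference -0.88, SE 0.36, limma adjusted p = 0.235). A second, dimmer probe for Mrps26 read 2.12, 2.32 and 2.22 in Gα12 KO livers and 2.26, 2.60 and 2.37 in WT livers. The groups overlapped on that probe, and its difference was -0.19. Mrps15, whose bacterial counterpart binds rRNA early in assembly, had 3.63, 3.60 and 3.58 in Gα12 KO livers and 4.84, 4.45 and 3.69 in WT livers. For Mrps35, particular to mitochondria, the levels were 2.63, 2.58 and 2.41 in Gα12 KO livers and 2.76, 2.94 and 2.68 in WT livers, a narrow gap that changed sign under other scalings (0.22 with the 75th percentile over detected probes). Mrps15 differed by -0.72 (SE 0.38) and Mrps35 by -0.25 (SE 0.29), with limma adjusted p-values of 0.258 and 0.553.

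Mrps27 and Mrps5 went against the family. Mrps27, an RNA-binding protein of the pentatricopeptide repeat type, had 1.68, 1.73 and 1.71 in Gα12 KO livers and -0.09, 0.54 and 1.75 in WT livers. WT replicates 1 and 2 were low and WT replicate 3 stood just above the Gα12 KO livers, 0.05 from their mean (difference 0.97, SE 0.48, limma adjusted p = 0.250). Mrps5, whose bacterial counterpart lies at the entry of the mRNA channel, had 1.76, 1.77 and 1.87 in Gα12 KO livers and 0.51, 1.38 and 1.81 in WT livers. Its groups overlapped as well (difference 0.57, SE 0.40, limma adjusted p = 0.348). Mrps9, Mrps10 and Mrps11 also had higher means in Gα12 KO livers, by 0.04, 0.17 and 0.37.

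The Mrps18 genes are a trio of paralogs of a bacterial small subunit protein, of which Mrps18b and Mrps18c products sit in the small subunit and that of Mrps18a in the large subunit of mammalian mitoribosomes. Mrps18c had 4.50, 4.64 and 4.66 in Gα12 KO livers and 6.16, 5.41 and 4.47 in WT livers. Mrps18a had 4.49, 4.56 and 4.21 in Gα12 KO livers and 4.93, 4.95 and 4.13 in WT livers. Mrps18b had 6.02, 6.23 and 5.78 in Gα12 KO livers and 6.78, 6.53 and 5.46 in WT livers. In all 3 paralogs WT replicate 3 was below every Gα12 KO liver. The differences were -0.75 (SE 0.46) for Mrps18c, -0.25 (SE 0.35) for Mrps18a and -0.25 (SE 0.42) for Mrps18b, with limma adjusted p-values of 0.300, 0.622 and 0.685, and Mrps18a and Mrps18b changed sign after quantile normalization (0.22 and 0.28). Mrps30, whose product also lies in the large subunit, differed by -0.65 (SE 0.40, limma adjusted p = 0.302). Mrps36, whose product is now known as a component of the 2-oxoglutarate dehydrogenase complex, differed by -0.48 (SE 0.40, limma adjusted p = 0.422), and by 0.013 after quantile normalization.

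The 48 large subunit genes measured had a median difference of -0.56, and 2 of them (4.17%, against 16.6% of all genes) had an unadjusted p below 0.05, both with lower means. Mrpl15, the counterpart of a bacterial large subunit protein, had 4.36, 4.22 and 4.19 in Gα12 KO livers and 5.50, 5.50 and 4.52 in WT livers. Mrpl1, whose bacterial counterpart forms the stalk beside the exit site for tRNA, had 1.20, 1.04 and 0.94 in Gα12 KO livers and 2.77, 2.35 and 1.23 in WT livers. In both genes the groups did not overlap, but WT replicate 3 was nearer to the Gα12 KO livers than to the other WT livers. Mrpl15 differed by -0.92 (SE 0.37, limma adjusted p = 0.235) and Mrpl1 by -1.06 (SE 0.44, limma adjusted p = 0.236).

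Mrpl30, Mrpl32, Mrpl36 and Mrpl38 followed the same pattern. Mrpl32, whose product is cut to its mature form by a mitochondrial protease in yeast and mouse, had 3.43, 3.28 and 3.28 in Gα12 KO livers and 4.74, 4.23 and 3.52 in WT livers. The 4 genes differed by -0.60 to -0.84, and WT replicate 3 exceeded the highest Gα12 KO liver in each of them. Mrpl35, which is among the genes of lowest signal in the family, also had separate groups, with 0.39, 0.23 and 0.48 in Gα12 KO livers and 0.49, 0.48 and 0.56 in WT livers. Those values lie so close that the difference was -0.15 (SE 0.29, limma adjusted p = 0.729), and it was 0.33 with the 75th percentile over detected probes.

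**Figure D3:**
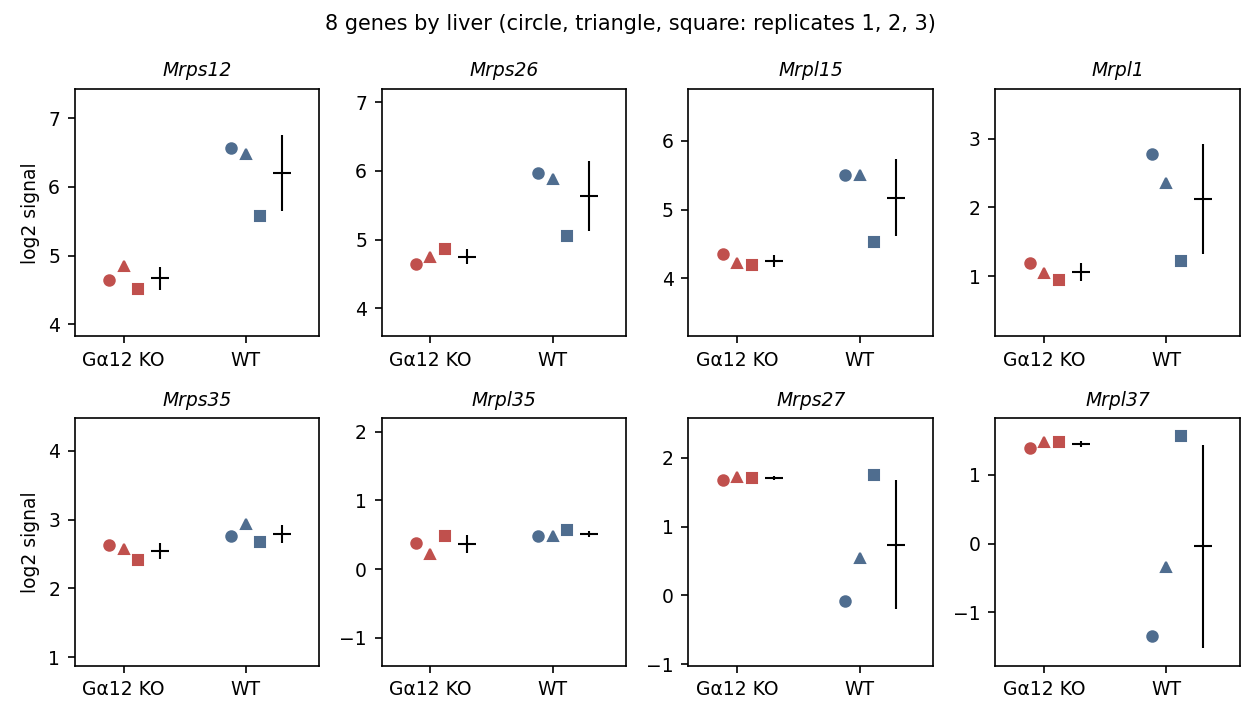
Log2 signal (y axis, the same span in each panel) of 8 genes in Gα12 KO livers (left) and WT livers (right), with circles, triangles and squares for replicates 1, 2 and 3 and the mean ± SD beside them. In Mrps12 all WT livers stand clear of the Gα12 KO livers, in Mrps26, Mrpl15 and Mrpl1 the square of WT replicate 3 is next to them, Mrps35 and Mrpl35 hardly vary, and in Mrps27 and Mrpl37 WT replicates 1 and 2 are low.

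Mrpl37, a large subunit protein gene particular to mitochondria, had the highest difference of the family. Its log2 levels were 1.40, 1.48 and 1.48 in Gα12 KO livers and -1.34, -0.34 and 1.56 in WT livers. WT replicate 3 was above the Gα12 KO livers and WT replicates 1 and 2 far below them, so that the groups overlapped and the SD was 0.05 in Gα12 KO and 1.47 in WT (difference 1.49, SE 0.68, limma adjusted p = 0.240). Without WT replicates 1 and 2 the difference was -0.11. Mrpl28, Mrpl9 and Mrpl42 also had higher means in Gα12 KO livers, by 0.55, 0.30 and 0.30.

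The genes of highest signal in the family were Mrpl14, Mrpl33, Mrpl52, Mrpl57 and Mrpl20, all of the large subunit. Mrpl14, whose bacterial counterpart faces the small subunit, had 7.25, 7.18 and 6.87 in Gα12 KO livers and 8.38, 7.91 and 6.70 in WT livers. In all 5, with this scaling, WT replicate 3 was below every Gα12 KO liver and WT replicates 1 and 2 above. Those of lowest signal were Mrpl35, Mrpl37, Mrpl19, Mrps27 and Mrps5, of which 3 had higher means in Gα12 KO livers. Signals depend on the probe as well as on the transcript, so this order is of probes and not of abundance. Across the 77 genes the difference and the mean signal had a Pearson correlation of -0.46, against -0.16 over the 12294 genes, and 8 of the 9 genes with a higher mean in Gα12 KO livers were below the family's median signal. Genes are not independent replicates, and these correlations are descriptions.

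Genes with and without a bacterial counterpart had similar medians. The 47 measured genes with a bacterial counterpart had a median difference of -0.59, with 8 (17%) in which all Gα12 KO livers were below all WT livers. The 29 genes particular to mitochondria had a median of -0.55, with 3 such genes (10.3%). Both shares lie below the 21.1% of all genes. The difference between these groups of genes was not tested.

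Probes for the same gene did not always agree in direction. Of the 77 genes, 20 had a pair of kept probes, and for 8 of them the brighter probe had a lower mean and the dimmer probe a higher mean in Gα12 KO livers, although the brighter probes of Mrpl4, Mrpl10, Mrps18b and Mrps23 turned positive after quantile normalization. In the other 12 both probes were lower. For Mrps2, the gene with the widest disagreement and the counterpart of a bacterial small subunit protein, the brighter probe differed by -0.54 and the dimmer one by 1.31. The dimmer Mrps2 probe read -0.39, -0.57 and -0.58 in Gα12 KO livers and -2.83, -2.52 and -0.14 in WT livers, so that WT replicate 3 was with the Gα12 KO livers. The other genes with opposite probes were Mrpl47, Mrpl50, Mrps18b, Mrps25, Mrpl4, Mrpl10 and Mrps23, and in 6 of the 8 the probes differed by over 1 log2 unit. The signal of the brighter probe minus that of the dimmer one was compared with its values on the Gα12 KO arrays. It was larger than on every Gα12 KO array for 11 of the 20 pairs on WT replicate 1, 12 on WT replicate 2 and 3 on WT replicate 3. For Mrpl27 it was below 0 on WT replicates 1 and 2 (-0.66 and -0.21). The Gapdh probes lay furthest apart on WT replicates 1 and 2. No count of opposite probes was made over all genes. For these 8 genes the direction depends on the probe, and the values given above for them are those of the brighter probe. Mrps12 had 1 probe, so no second probe bears on it. The same holds for the 9 genes with a higher mean in Gα12 KO livers, Mrpl37, Mrps27 and Mrps5 among them, with 1 kept probe each. For Mrpl37 and Mrps27, WT replicates 1 and 2 were low and WT replicate 3 was with the Gα12 KO livers, as for the dimmer Mrps2 probe.

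**Figure D4:**
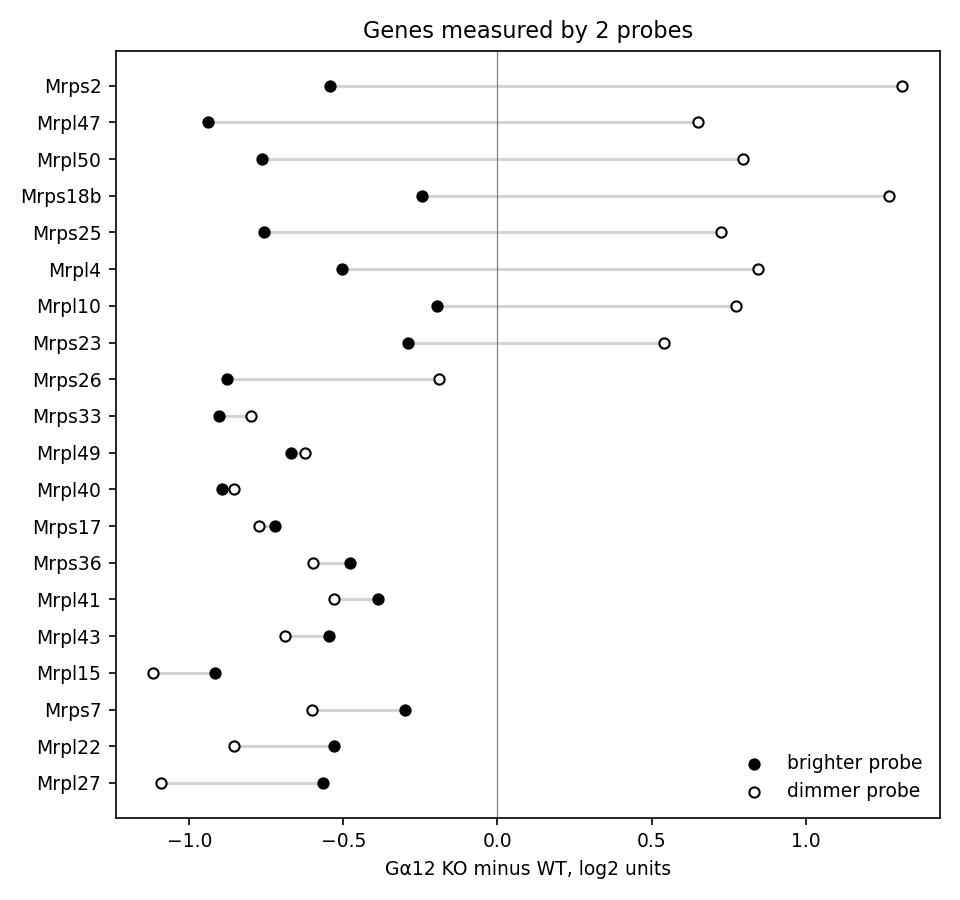
Gα12 KO minus WT in log2 units (x axis) for the brighter (filled) and dimmer (open) probe of the 20 genes with 2 kept probes, with the scaling used here. In the top 8 genes the filled point lies below 0 and the open point above 0, with Mrps2 at -0.54 and 1.31; in the other 12 both points lie below 0.

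In the lists of other genes around the mitoribosome limma called 0 genes at an adjusted p below 0.05. Over all genes, 16.6% had lower means and 3.99% had higher means with an unadjusted p below 0.05. All 5 mitoribosomal protein genes with other names had lower means in Gα12 KO livers, 1 of them with an unadjusted p below 0.05, and their median difference was -0.93. Ptcd3, a pentatricopeptide repeat protein of the small subunit, had 3.85, 3.85 and 4.18 in Gα12 KO livers and 5.72, 5.18 and 4.27 in WT livers (difference -1.09, SE 0.43, limma adjusted p = 0.235). Among the 12 measured translation factors the median was -0.64, and an unadjusted p below 0.05 was found for 3 with lower means (25%) and 1 with a higher mean (8.33%). Mtif2, the initiation factor that brings the first tRNA to the ribosome, differed by -1.04 (SE 0.38) and Guf1, a GTPase related to elongation factors, by -1.52 (SE 0.41). Tsfm, the nucleotide exchange factor of the elongation factor Tufm, had 1.67, 1.49 and 1.26 in Gα12 KO livers and -4.37, -1.45 and 1.19 in WT livers. The limma adjusted p was 0.235 for all 3, and WT replicate 3 was close to the Gα12 KO livers for Tsfm. The Tsfm level in WT replicate 1 was below that array's lowest signal well above background, -3.07.

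By the same unadjusted threshold, 1 of 27 genes for assembly and rRNA modification was lower (3.70%) and 1 was higher (3.70%), with a median of -0.46. Mrm2, a methyltransferase of the large rRNA, had -0.12, 1.27 and 0.32 in Gα12 KO livers and -3.86, -2.76 and -0.13 in WT livers (difference 2.74, SE 0.90, limma adjusted p = 0.235). WT replicate 3 was just below the lowest Gα12 KO liver. WT replicate 1 was below that array's lowest signal well above background, -3.07. Mterf3, which binds mitochondrial nucleic acid, differed by -0.94 (SE 0.39) and Rpusd4, a pseudouridine synthase, by -1.02 (SE 0.44). Of 20 aminoacyl-tRNA synthetase and amidotransferase genes 2 were lower (10%) and 0 higher, with a median of -0.45, and Wars2, which charges tryptophan tRNA, differed by -1.23 (SE 0.43). Gatb, a subunit of the amidotransferase that makes glutaminyl-tRNA, and Yars2, the synthetase for tyrosine, had separate groups at -0.55 and -0.42. Of 20 genes for mitochondrial transcription and RNA handling 4 were lower (20%) and 0 higher, with a median of -0.64. Among them Tfam, which packages mitochondrial DNA and starts its transcription, had 3.34, 3.08 and 3.25 in Gα12 KO livers and 4.75, 4.82 and 3.60 in WT livers (difference -1.17, SE 0.41, limma adjusted p = 0.235). Mtpap, the mitochondrial poly(A) polymerase, differed by -1.18 (SE 0.42) and Taco1, a translational activator of a cytochrome oxidase subunit, by -0.66 (SE 0.34).

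NRF1, GABP and YY1, but not SP factors, were among the products of a list of 13 measured regulator genes with a median of -0.55. Of these, 2 (15.4%) had lower means with an unadjusted p below 0.05 and 0 had higher ones. Gabpa, the DNA-binding subunit of GABP, had 1.09, 0.69 and 0.98 in Gα12 KO livers and 2.82, 2.67 and 1.28 in WT livers (difference -1.34, SE 0.46, limma adjusted p = 0.235). Sirt1, a deacetylase that acts on transcriptional coactivators, had 0.72, 0.43 and 1.06 in Gα12 KO livers and 3.06, 2.81 and 1.12 in WT livers (difference -1.60, SE 0.54, limma adjusted p = 0.235). In both genes WT replicate 3 stood just above the Gα12 KO livers. Nrf1 differed by -1.23 (SE 0.54, limma adjusted p = 0.239) and Yy1 by -0.34 (SE 0.39, limma adjusted p = 0.539), with overlapping groups. Means were lower in Gα12 KO livers for 10 of the 13 genes and higher for 3. The higher ones were Myc (1.53, SE 0.71), Gabpb2 (0.26, SE 0.42) and Ppara (0.11, SE 0.38), all with overlapping groups. The Myc level in WT replicate 1, -3.74, was below that array's lowest signal well above background, -3.07.

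**Figure D5:**
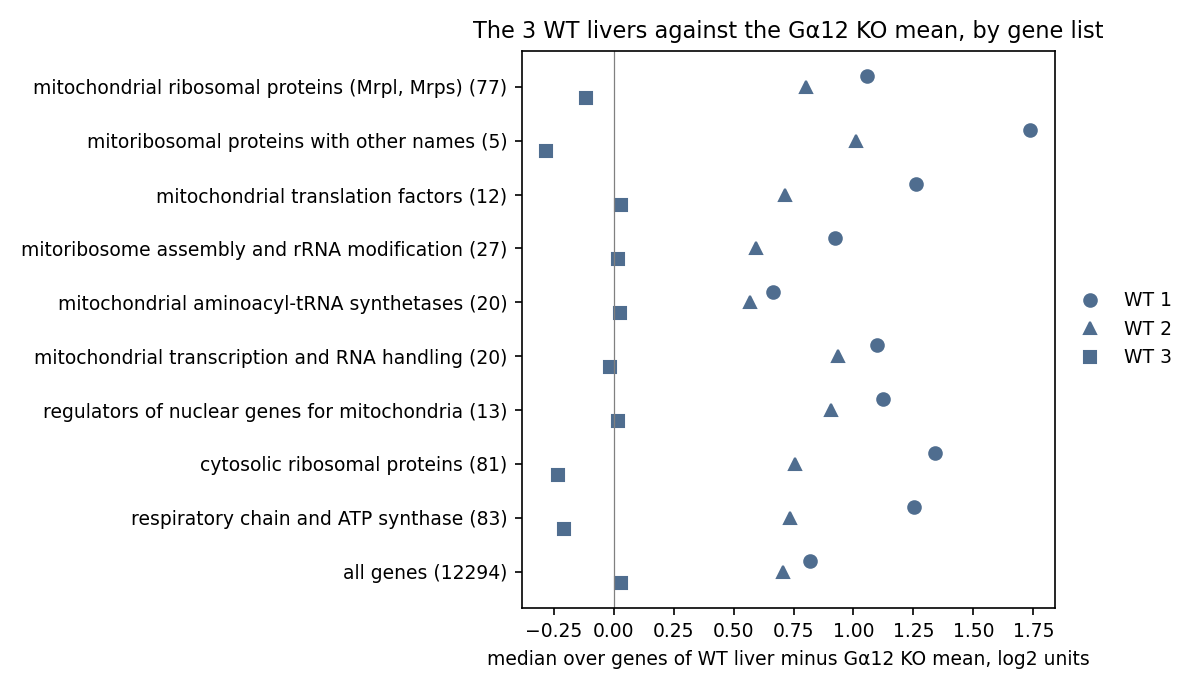
For each gene list (number of measured genes in brackets), the median over its genes of a WT liver minus the Gα12 KO mean in log2 units (x axis), with circles, triangles and squares for WT replicates 1, 2 and 3. WT replicates 1 and 2 lie above 0 in every list shown and WT replicate 3 between -0.28 and 0.03.

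The gene sets most like the family had median differences of similar size. The 81 measured cytosolic ribosomal protein genes had a median difference of -0.59, with an unadjusted p below 0.05 for 0 of them, and their medians relative to the Gα12 KO mean were 1.34, 0.76 and -0.23 in WT replicates 1, 2 and 3. The 83 respiratory chain and ATP synthase genes, whose complexes hold the products of mitochondrial translation, had a median of -0.58, with 3 lower (3.61%) and 1 higher (1.20%) by that threshold, against 16.6% and 3.99% of all genes, and corresponding medians of 1.25, 0.73 and -0.21. WT replicate 3 lay below all Gα12 KO livers for 60.5% of the cytosolic and 67.5% of the respiratory chain set, against 53.2% of the family. WT replicates 1 and 2 both lay above all other arrays for 95.1% and 84.3%, against 87.0% of the family. The differences between these sets and the family, in medians and in shares, were not tested.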

How the data were processed

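Liver RNA of 3 Gα12 KO and 3 WT mice was measured on 1-colour arrays, 1 animal per array as the labels describe it, with 0.5 µg of RNA labelled for each per the labels' protocols. Groups came from the sample titles. The deposited scanner files hold spot intensity on a linear scale, read with Agilent Feature Extraction 10.7.3.1 per the submitters' processing notes, and background-subtracted per the file headers. The deposited series matrix holds log2 values, which matched the log2 processed intensity plus a constant per array, not centred by gene, and the choice of that constant is unknown. Its column medians were 4.32, 4.44 and 4.52 for Gα12 KO replicates 1 to 3 and 4.41, 4.17 and 4.70 for WT replicates 1 to 3.

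From the 62976 spots of each array, control spots and spots marked as outliers were left out, log2 processed intensity minus the array's 75th percentile was taken, and 23132 of 55324 probes that were well above background on 3 or more arrays were kept. No spot was saturated. The number of probes well above background was 20953 to 22585 on Gα12 KO arrays. It was 22951 and 23530 on WT replicates 1 and 2, and 28752 on WT replicate 3. The 75th percentile subtracted was 8.20 to 8.63 log2 units on Gα12 KO arrays. For WT replicates 1, 2 and 3 it was 7.80, 8.30 and 9.09. Spots marked as non-uniform numbered 98 to 158 on Gα12 KO arrays and 2 to 6 on WT arrays, and the background error estimate was 10.5 to 13.3 on Gα12 KO arrays and 5.97 to 8.60 on WT arrays. Symbols came from RefSeq GRCm38.p6 by unversioned accession, for 26756 probes, and 28925 stayed unnamed. The kept probe with the highest mean stood for a gene. limma 3.58.1 in R 4.3.3 (lmFit, eBayes, two-sided, Benjamini-Hochberg over all kept probes, threshold 0.05) gave the tests, after a check on simulated data. Normexp was run on median signals because the files hold no mean signal. Correlations of the genes over the arrays are not given, since WT replicates 1 and 2 lie apart.

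The genes and lists were chosen with earlier results of these data known. The naming rule took up to 10 genes in each direction whose groups did not overlap, the 5 of highest and 5 of lowest signal, those with opposite probes, Mrps18a to Mrps18c, Mrps30 and Mrps36, and up to 3 genes of each other list. The remaining genes named were chosen after their values were seen. The same replicate numbers did not pair the livers (correlations of deviations -0.13, 0.01 and -0.04).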

Additional observations from a re-analysis of the deposited data

How the results depend on the processing

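Within the family, the count of genes called by limma was 0 under every alternative except the fit without WT replicate 3. Over the whole array, limma also called 2 probes after normexp and 2 probes with the filter on all 6 arrays. With the mean of all kept probes of a gene it called 7 genes on the array. Over the fits that left out 1 liver each, the count of family genes called ran from 0 to 58. The family's count lower at an unadjusted p below 0.05 ran from 1 to 63 and its count higher from 0 to 4. All were highest without WT replicate 3. Among all 12294 genes, the lower count ran from 553 to 6740 and the higher count from 127 to 1642 in these fits, also highest without WT replicate 3. That fit called 50.6% of all genes lower and 11.5% higher at an adjusted p below 0.05. The lower count of 4 became 1 with arrays scaled to the median, with the 75th percentile over detected probes, after quantile normalization, with the replicate number as a block and without WT replicates 1 and 2, and 2 after normexp. The higher count of 0 became 1 with the 75th percentile over detected probes, after quantile normalization, with the filter on all 6 arrays and with the replicate block, 2 without WT replicates 1 and 2, and 3 after normexp. The block changed no call at an adjusted p below 0.05. Among all 12294 genes, 2038 were lower and 490 higher at that unadjusted threshold in the main fit. These counts were 1447 and 636 with arrays scaled to the median and 1018 and 704 with the 75th percentile over detected probes. They were 1746 and 550 after quantile normalization, 1778 and 721 after normexp and 1538 and 652 with the block. With the filter on all 6 arrays they were 1955 and 393 of 10393 genes. The family's median of -0.57 became -0.091 with the 75th percentile over detected probes, -0.085 after quantile normalization, -0.12 after normexp and 0.12 without WT replicates 1 and 2; the cause was not tested, except that the first of these adds a constant to every gene. Without a filter on dim probes the array's median was -0.08, the family's median -0.56, and the family's distance from the array -0.48.

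Named genes changed sign as follows. With the 75th percentile over detected probes the differences were 0.28 for Mrpl10, 0.33 for Mrpl35, 0.14 for Mrpl57, 0.22 for Mrps18a, 0.23 for Mrps18b, 0.18 for Mrps23 and 0.22 for Mrps35. After quantile normalization they were 0.25 for Mrpl10, 0.0251 for Mrpl20, 0.0284 for Mrpl4, 0.075 for Mrpl52, 0.22 for Mrpl57, 0.22 for Mrps18a, 0.28 for Mrps18b, 0.19 for Mrps23, 0.11 for Mrps35 and 0.0128 for Mrps36. After normexp they were 0.26 for Mrpl10, 0.0318 for Mrpl20, 0.0669 for Mrpl4, 0.0751 for Mrpl52, 0.22 for Mrpl57, 0.22 for Mrps18a, 0.32 for Mrps18b, 0.17 for Mrps23 and 0.0708 for Mrps35. With the mean of all kept probes of a gene they were 0.29 for Mrpl10, 0.17 for Mrpl4, 0.0174 for Mrpl50, 0.51 for Mrps18b, 0.38 for Mrps2 and 0.12 for Mrps23. In the deposited matrix, 75 of the 77 genes were present, and a gene whose probe used here was absent was represented by another kept probe. Mrpl50 was at 0.74 there, which is its dimmer probe (0.80 with the scaling used here, against -0.76 for the brighter one). That change of sign is therefore one of probe and not of scaling. Without WT replicates 1 and 2 the differences were 0.0987 for Mrpl10, 0.40 for Mrpl14, 0.0335 for Mrpl19, 0.41 for Mrpl20, 0.25 for Mrpl33, -0.11 for Mrpl37, 0.28 for Mrpl4, 0.0138 for Mrpl47, 0.12 for Mrpl50, 0.19 for Mrpl52, 0.65 for Mrpl57, 0.28 for Mrps18a, 0.55 for Mrps18b, 0.13 for Mrps18c, 0.11 for Mrps2, 0.23 for Mrps23, 0.31 for Mrps25, -0.0495 for Mrps27, 0.11 for Mrps30, 0.28 for Mrps36 and -0.0111 for Mrps5. Leaving out 1 liver each moved Mrps18b between -0.64 and 0.017, with the sign changed without WT replicate 1. With 1 WT liver left, its spread is assumed to be that of the other group. Low signals limit Mrpl21 and Gna12, which were at background on most arrays.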
